A study of Mus musculus with 25 samples.

Results

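The 5 arrays labelled as a murine brain reference were set against 5 arrays of freshly isolated mouse ovarian follicles (day 0), to see which tissue the RNA on the reference arrays resembled. The arrays were chosen by their source labels, Reference and Day 0, each with repeats 1 to 5, and these 10 arrays come from a series of 25. The other 15 arrays hold cultured follicles (days 2, 4, 5, 6 and 8 of culture, with 3 arrays a day) and entered the model to estimate the spread. Day 0 RNA came from CD-1 mice aged 16 days, as pools of 20 to 40 multilayered secondary follicles with a diameter between 150 and 180 µm, dissected by hand and not cultured. For the reference the labels give the tissue as brain and no strain, age, sex or dissection. Total RNA was amplified in 1 round, labelled with biotin and hybridised to Illumina bead arrays, on which each probe is read as the mean signal of many beads.

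Tissues can be told apart by transcripts of proteins that 1 cell type uses. Heart muscle cells carry their own myosins, myosin light chains, troponins and calcium-handling proteins, secrete natriuretic peptides and burn mainly fatty acids in dense mitochondria. Brain is marked by synaptic vesicle proteins and neurofilaments of neurons and by myelin and astrocyte proteins of glia. A secondary follicle consists of an oocyte, which makes zona pellucida proteins and growth factors, dividing granulosa cells around it and an early theca layer.

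The data went against the brain label. Of 23 heart muscle genes on the array, 21 were detected (detection p under 0.05) on all 5 reference arrays, or 91.3%, against 42.6% of all 17888 genes on the array, and none was missing from all of them, beside 45.2% of all genes. Of 19 brain neuron genes 5 were detected on all 5 reference arrays (26.3%) and 10 on none, and of 17 brain glia genes 5 were detected on all 5 (29.4%) and 9 on none. By these lists the reference RNA resembled heart muscle and not brain, so the arrays are called by their label, reference, without a new tissue name. At day 0 the oocyte list was detected on all 5 arrays for 22 of 24 genes and the granulosa list for 13 of 15, beside 48.9% of all genes, and 17 of the 23 heart muscle genes were detected on none, beside 41.0%.

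Of 10483 genes tested, 8309 differed between the reference and day 0 (limma, adjusted p under 0.05), which is 79.3%. Of these, 3771 were higher in the reference (36.0% of genes tested) and 4538 were lower (43.3%), while without quantile normalization the balance turned, with 4226 higher and 4034 lower. A difference of at least 1 on the log2 scale was found for 4818 genes (46.0%), 2205 higher (21.0%) and 2613 lower (24.9%), and a difference of at least 3 for 516 higher (4.92%) and 407 lower (3.88%). The 5 arrays of one group did not overlap those of the other for 7491 genes (71.5%), against a median standard deviation of 0.17 among reference arrays and 0.16 among day 0 arrays. The median difference of all genes was -0.11, and 0.03 without quantile normalization, so directions of small differences depend on the scaling. With the reference and day 0 each averaged and counted as 1 sample, so that the spread came from the cultured follicle arrays alone and the averages were assumed to vary like them, 5093 genes passed, and with a test against 2-fold 3515 did. The labels do not say whether repeats came from separate animals or pools, so the p-values measure the spread between these arrays.

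**Figure D1:**
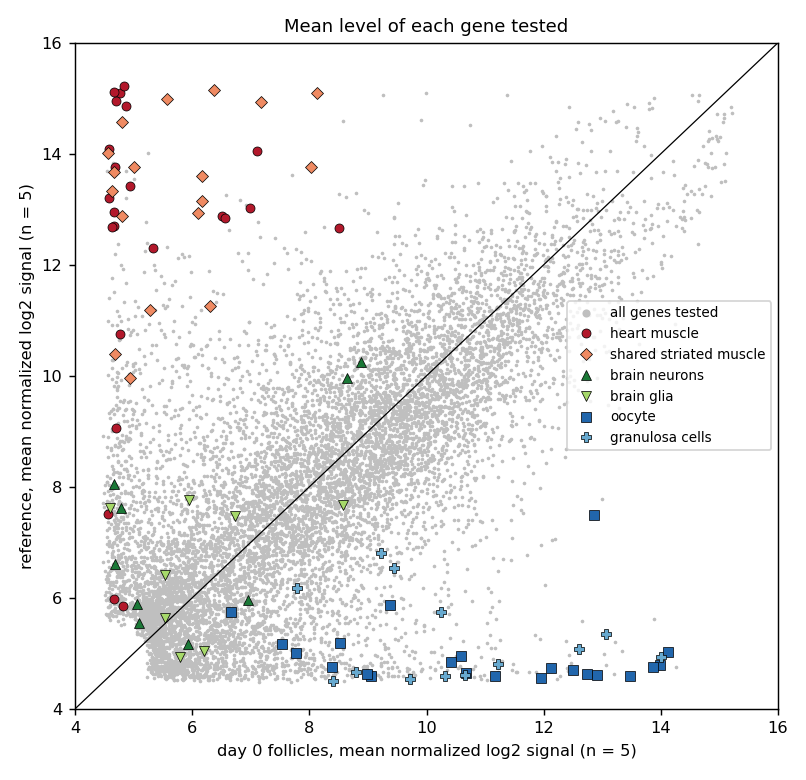
Mean normalized log2 signal of each gene tested in day 0 follicles (x axis, n = 5) and in the reference (y axis, n = 5), with the line of equal level; coloured symbols are members of 6 marker lists. Heart and striated muscle genes lie at the upper left, apart from the dimmer Tbx20, Ryr2 and Tbx5, oocyte and granulosa genes at the lower right, and the brain genes tested have no common place.

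Arrays within a group were alike and the groups far apart. Over the genes tested, the correlation between arrays was 0.984 to 0.991 within the reference, 0.984 to 0.996 within day 0 and 0.650 to 0.664 between them. The reference correlated at 0.651 to 0.693 with the cultured follicles, whereas day 0 correlated at 0.889 to 0.969 with them. On a reference array 43.6% ± 1.32 of probes were detected (SD, n = 5) and on a day 0 array 49.3% ± 0.668 (SD, n = 5), with no overlap (exact permutation test, two-sided, p = 0.0079, the smallest that 5 against 5 arrays allow). The permutation took no account of the repeat numbers. Repeat 4 had the lowest mean correlation with the other arrays of its group in both groups, 0.985 in the reference and 0.986 at day 0. Without both of these arrays 8034 genes passed, a choice made after seeing the data.

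The 15 genes with the largest fitted excess in the reference were Nppa, Myl3, Myl2, Actc1, Myh6, Cox8b, Csrp3, Actn2, Mb, Acta1, Rpl3l, Myoz2, Ckmt2, Eef1a2 and Ankrd1. Of these 7 belong to the heart muscle list and 5 to the lists of striated or skeletal muscle. The 15 genes with the largest fitted deficit were Akr1cl, Nlrp14, Ooep, Gdf9, Inha, Padi6, Oosp1, Oas1d, Bex4, Bmp15, Tenm4, Nlrp5, Fbxw18, Hsd17b1 and Ftdc1, of which 7 belong to the oocyte list and 2 to the granulosa list. At day 0, 13 of the 15 higher genes were detected on no array, and in the reference 13 of the 15 lower genes were detected on none, so the order within each set is not fixed by the data.

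Promoters of 6 of these 30 genes are shown because they come from the opposite ends of the comparison and hold the motifs searched. Each is the 250 bases before the annotated start in RefSeq (GRCm38.p6), 5′ to 3′ on the gene's strand, and 26 of the 30 genes matched the promoter table. Capitals mark matches, on either strand, to the CArG box of serum response factor and the MEF2 site, to the MCAT element with the letters CATTCC, to the site of GATA factors, which was searched with the letters AGATAA and also with the letters TGATAA, to the TATA box of core promoters, searched with the letters TATAAA, and to the NOBOX site. The last was searched with the letters TAATTA and also with the letters TAATTG, and no pair of matches overlapped. NOBOX is an oocyte transcription factor and the CArG, MEF2, MCAT and GATA motifs are known from muscle genes. The windows lie at chr4:148000472-148000721 (Nppa, plus strand), chr9:110763428-110763677 (Myl3, plus), chr2:114052876-114053125 (Actc1, minus), chr3:123034988-123035237 (Myoz2, minus), chr9:78378589-78378838 (Ooep, minus) and chrX:6320725-6320974 (Bmp15, minus).
Nppa: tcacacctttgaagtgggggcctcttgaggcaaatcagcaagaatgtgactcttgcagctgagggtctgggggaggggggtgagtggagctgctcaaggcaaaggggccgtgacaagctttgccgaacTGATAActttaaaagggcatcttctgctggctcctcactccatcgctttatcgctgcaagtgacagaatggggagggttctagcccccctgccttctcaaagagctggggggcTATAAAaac
Myl3: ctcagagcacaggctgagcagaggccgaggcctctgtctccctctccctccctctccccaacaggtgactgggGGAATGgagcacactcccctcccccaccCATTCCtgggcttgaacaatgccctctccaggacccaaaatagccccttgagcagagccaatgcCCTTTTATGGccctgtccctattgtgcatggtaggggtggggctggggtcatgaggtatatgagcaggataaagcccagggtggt
Actc1: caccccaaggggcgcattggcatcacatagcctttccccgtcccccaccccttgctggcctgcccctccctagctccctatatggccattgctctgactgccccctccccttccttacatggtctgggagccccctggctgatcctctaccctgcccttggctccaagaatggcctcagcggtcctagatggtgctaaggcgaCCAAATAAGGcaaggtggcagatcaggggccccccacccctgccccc
Myoz2: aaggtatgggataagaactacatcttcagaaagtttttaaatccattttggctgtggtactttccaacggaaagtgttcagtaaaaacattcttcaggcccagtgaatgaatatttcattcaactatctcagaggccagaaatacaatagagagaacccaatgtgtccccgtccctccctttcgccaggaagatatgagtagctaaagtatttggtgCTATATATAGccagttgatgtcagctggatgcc
Ooep: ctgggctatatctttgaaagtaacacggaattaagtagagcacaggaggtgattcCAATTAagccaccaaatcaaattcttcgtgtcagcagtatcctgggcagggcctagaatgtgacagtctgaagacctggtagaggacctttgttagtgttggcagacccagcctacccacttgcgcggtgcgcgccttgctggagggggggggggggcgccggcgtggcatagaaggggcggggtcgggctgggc
Bmp15: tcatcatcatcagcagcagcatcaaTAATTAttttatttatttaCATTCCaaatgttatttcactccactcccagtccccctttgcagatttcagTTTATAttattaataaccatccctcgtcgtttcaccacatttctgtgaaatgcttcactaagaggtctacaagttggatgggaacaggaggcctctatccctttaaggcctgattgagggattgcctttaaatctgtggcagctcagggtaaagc

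The CArG box of Myl3 began 85 bases before the start and that of Actc1 47 bases before it, and the MEF2 site of Myoz2 began 33 bases before it. In Nppa the GATA site began 122 bases and the TATA box 9 bases before the start. The NOBOX site began 195 bases before the start of Ooep and 225 bases before that of Bmp15. Of the 15 higher genes, 3 windows held a CArG box (Actc1, Acta1 and Myl3), 1 a MEF2 site, 4 a GATA site and 4 an MCAT element, and of the 11 lower genes with a window 0, 0, 1 and 4 did. Over all 27025 promoter windows of this length the shares were 1.4% for the CArG box, 0.518% for the MEF2 site, 17.0% for the GATA site, 12.6% for the MCAT element, 13.0% for the TATA box and 11.5% for the NOBOX site. A NOBOX site stood in 2 windows of the higher and 2 of the lower genes. A match describes the letters and does not show that a factor bound there.

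All 23 heart muscle genes on the array were higher in the reference, beside 36.0% of all genes tested, with a median difference of 8.04 and of 7.35 when the 17 genes detected on no day 0 array were held at their lower bound. Those 17 passed the filter on low signals through the reference arrays alone, so this count follows in part from the filter, and the detection counts do not rest on it. Without quantile normalization the median was 8.82, and in the authors' deposited log2 values, in which 22 members were higher, it was 4.58. In bulk RNA, more cells of a type and more RNA per cell cannot be told apart.

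Among the hormones, Nppa, which encodes atrial natriuretic peptide, read 15.16, 15.19, 15.19, 14.95 and 15.09 on reference repeats 1 to 5 and 4.67, 5.01, 4.55, 4.55 and 4.58 on day 0 repeats 1 to 5 (normalized log2 signal). Every reference array lay far above every day 0 array, where the gene was not well above background. It was at least 884-fold higher in the reference (difference 10.44, SE 0.11, adjusted p = 3e-28). Nppb, the related B-type peptide of strained heart muscle, was at least 235-fold higher.

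The motor of heart muscle gave the same picture. Myh6, the fast alpha myosin heavy chain of adult mouse heart, read 14.82, 14.82, 14.87, 14.93 and 14.84 on the reference arrays and 4.79, 5.03, 4.90, 4.90 and 4.73 at day 0. It was at least 739-fold higher in the reference (difference 9.99, SE 0.09, adjusted p = 2.84e-29). Myh7, the slow beta chain that prevails before birth in the mouse, read 10.54, 10.59, 10.90, 11.18 and 10.54 against 4.67, 4.73, 4.89, 4.90 and 4.63, with no overlap, and was at least 42.9-fold higher. Myh6 and Myh7, like Actc1 and Acta1, are near-identical genes, and a probe of one may also read the other.

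Cardiac actin Actc1 was at least 787-fold higher, the cytoskeletal sensor Csrp3 at least 432-fold and the Z-disc protein Myoz2 at least 347-fold. Mybpc3, a thick filament protein, was detected on all 10 arrays and averaged 12.88 ± 0.09 in the reference against 6.52 ± 0.12 at day 0 (SD, n = 5). Tnni3, the cardiac inhibitory troponin, was likewise detected on all 10 arrays and averaged 12.66 ± 0.11 against 8.51 ± 0.28 (SD, n = 5), a difference of 4.15 (SE 0.22, adjusted p = 1.84e-14), the smallest among the sarcomere genes of the list.

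Genes of both heart chambers were higher in the reference. Of the atrial genes, the light chain Myl7 was at least 166-fold higher and sarcolipin (Sln), an inhibitor of the calcium pump, at least 198-fold, while Myl4 differed by 6.95 (SE 0.18). The gap junction gene Gja5 averaged 8.85 in the reference, and the probe used for it was not well above background at day 0. Of the ventricular genes, Myl2 was at least 867-fold higher, Myl3 at least 955-fold and the transcription factor Irx4 at least 5.375-fold. Hey2, a ventricular repressor that other cells express too, went the other way, at 5.26 ± 0.60 in the reference, where 2 of 5 arrays detected it, and 7.80 ± 0.31 at day 0 (SD, n = 5; difference -2.54, SE 0.22, adjusted p = 1.38e-10).

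The transcription factors of heart muscle were present as well. Nkx2-5 was on all 5 reference arrays and no follicle array and at least 13.3-fold higher, Tbx20 was at least 4.54-fold higher, and Tbx5, detected on 3 of 5 reference arrays, at least 1.44-fold (adjusted p = 3.73e-06). Ryr2, the calcium release channel, was also detected on 3 of 5 reference arrays and was at least 1.57-fold higher (adjusted p = 2.08e-08); neither was detected at day 0.

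**Figure D2:**
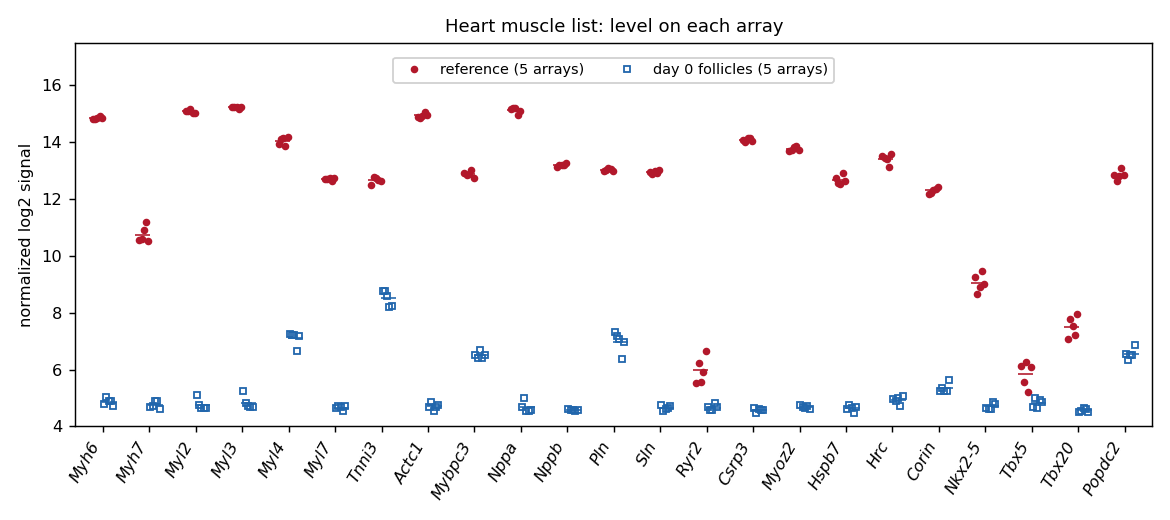
Normalized log2 signal of the 23 heart muscle genes on each of the 5 reference arrays (filled circles) and 5 day 0 arrays (open squares), with short lines at the group means. The groups do not overlap for any of the 23 genes, and they lie close together for Ryr2 and Tbx5, which no day 0 array detected.

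Of 20 genes shared by heart and skeletal muscle, 18 were detected on all 5 reference arrays. All 18 tested were higher, beside 36.0% of all genes tested (median 7.49 with the 7 genes undetected at day 0 at their bound). Mb, the oxygen store myoglobin, averaged 14.98 ± 0.04 against 5.56 ± 0.35 (SD, n = 5; difference 9.42, SE 0.13, adjusted p = 3.85e-26), and Cox6a2 and Cox8b, muscle forms of cytochrome oxidase subunits, differed by 8.78 (SE 0.20) and, for Cox8b, by at least 609-fold. Of 24 skeletal muscle genes, 6 were detected on all 5 reference arrays and 15 on none. The fast fibre genes Tnnt3, Tnnc2, Mylpf, Myh1 and Myh4 and the skeletal regulators Myod1 and Myf6 were detected on no reference array. Other fast fibre genes, such as Myl1 and Mybpc2, were detected on all 5.

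The skeletal genes that were higher included Acta1, skeletal actin, which was at least 361-fold higher, and Myl1, at least 133-fold higher by its brighter probe, whereas a further Myl1 probe was detected on none of the 10 arrays. Tnnt1, the slow troponin T, differed by 2.90 (SE 0.24) and Mybpc2 was at least 9.19-fold higher. Myh2 was at least 3.81-fold, Actn3 at least 1.74-fold and Jsrp1 at least 1.08-fold lower in the reference, where none of them was detected. In all 8 of 11 tested members were higher and 3 lower, beside 36.0% and 43.3% of all genes tested, and 8 of the 11 were undetected in one group.

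**Figure D3:**
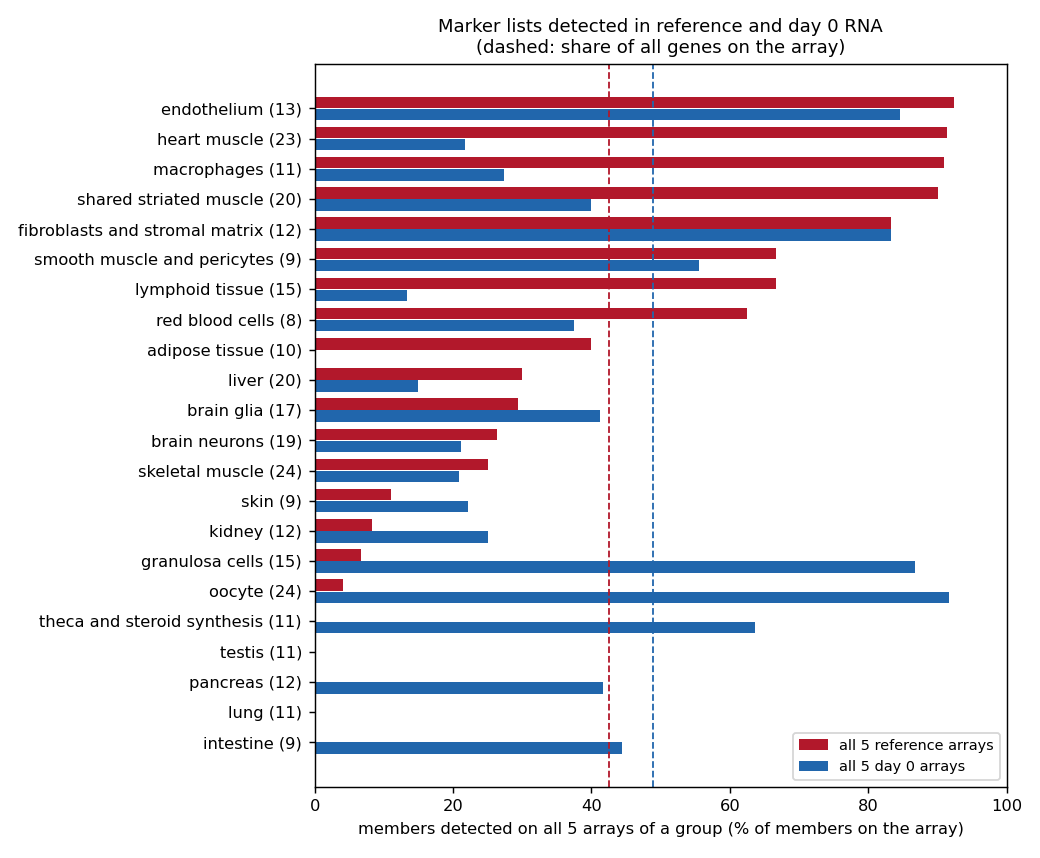
Share of the members of 22 marker lists (number on the array in brackets) detected on all 5 reference arrays (red) and all 5 day 0 arrays (blue); dashed lines are the shares of all genes on the array, 42.6% and 48.9%. Heart muscle stands at 91.3% in the reference and 21.7% at day 0, the oocyte list at 4.17% and 91.7%, and both brain lists lie below the dashed lines.

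The brain lists held few members above background. Snap25, Syt1, Syn1, Stmn3, Nefl, Nefm, Gap43, Gad1 and Nrgn, which serve the synapse, the axon skeleton and inhibitory transmission, were detected on no reference array. Gfap, the intermediate filament of astrocytes, and the myelin and oligodendrocyte genes Mobp, Mog, Olig1 and Olig2 were detected on none either. S100b and Fabp7 of glia were not detected on any of the 10 arrays, and Mag and Slc1a2 on 2 reference arrays each.

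Even so, 3 neuron genes and 1 glia gene were found on all 5 reference arrays and on none of the 20 follicle arrays. Slc17a7, a vesicular glutamate transporter, read 8.34, 7.99, 8.03, 7.68 and 8.26 in the reference and 4.56, 4.70, 4.52, 4.73 and 4.84 at day 0, without overlap, and was at least 6.64-fold higher (difference 3.39, SE 0.11, adjusted p = 8.47e-19). By its brightest probe Camk2a, a synaptic kinase, read 7.26, 7.64, 7.60, 7.64 and 7.99 against 4.89, 4.77, 4.86, 4.71 and 4.71 and was at least 4.92-fold higher. The other Camk2a probes were detected on none of the 10 arrays. Aqp4, a water channel of astrocytes that muscle also makes, was at least 4.90-fold higher, and Stmn2, a microtubule regulator of neurons, at least 2.44-fold.

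Of the 9 neuron genes tested, 6 were higher (beside 36.0% of all genes tested) and 2 lower in the reference, with a median of 1.33. This describes the genes that passed the filter, of which 4 were undetected at day 0; the median was 0.04 over all neuron genes on the array without the filter and 0.39 in the authors' values. Thy1, a surface protein shared with T cells, differed by 1.37 (SE 0.20), while Eno2 (-0.99, SE 0.15) and Elavl3 (-0.75, SE 0.16) were lower. Tubb3 averaged 5.55 against 5.09 and did not pass (adjusted p = 0.0503), but passed with the 10 arrays alone (0.44), with or without the repeat number as a block, and without quantile normalization (0.59). It also passed with genes read by the mean of their probes (0.45) and without reference repeat 3 (0.58). Of the 8 glia genes tested, 4 were higher, among them the myelin genes Cnp (1.81, SE 0.17) and Mbp (0.86, SE 0.19), and 3 were lower, among them Aldoc (at least 1.06-fold) and Ttyh1 (at least 1.40-fold), which no reference array detected. Summed over the neuron genes tested, the log2 level was 11.49 to 11.63 in the reference and 10.10 to 10.33 at day 0; for the heart list it was 18.17 to 18.21 and 10.15 to 10.49.

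**Figure D4:**
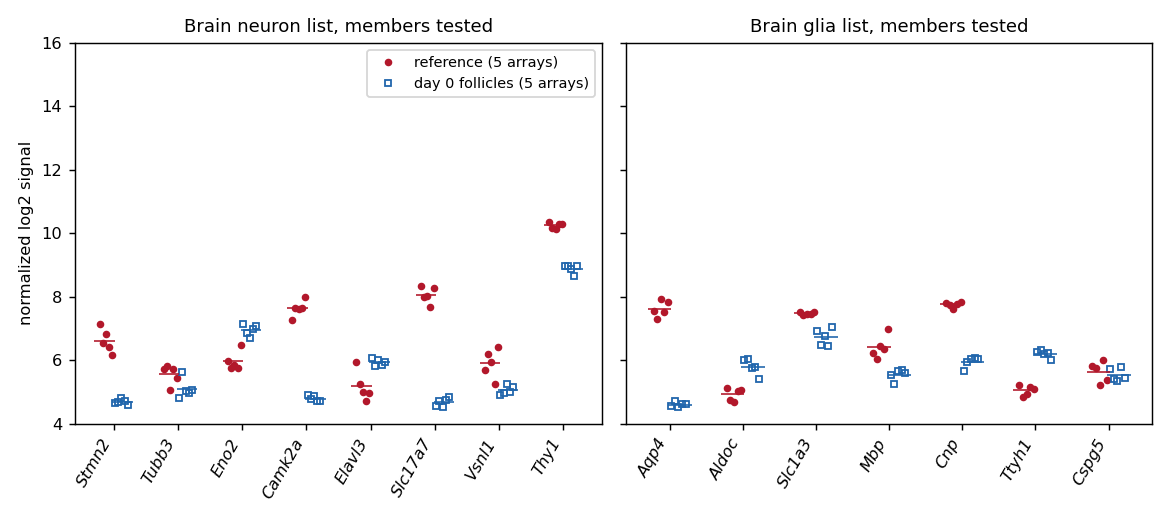
Normalized log2 signal of 8 of the 9 neuron and 7 of the 8 glia genes tested on each reference array (filled circles) and day 0 array (open squares), with short lines at the group means; the 10 neuron and 9 glia genes too dim to test are not drawn. Slc17a7, Camk2a, Stmn2 and Aqp4 separate upward in the reference, Eno2, Aldoc and Ttyh1 downward.

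Of the markers of other organs, lymphoid tissue apart, shares at or below the 42.6% of all genes were detected on all 5 reference arrays. Of the lymphoid genes on the array, 10 of 15 (66.7%) were detected on all 5 reference arrays and 13.3% on all 5 day 0 arrays. Lung, testis, pancreas, intestine and embryonic red blood cells had no member on all 5 reference arrays, kidney 1 of 12, skin 1 of 9, adipose tissue 4 of 10 (40.0%) and liver 6 of 20. Of those tested, all 5 adipose genes were higher, 4 of them undetected at day 0, and 6 of 8 liver genes were higher and 2 lower. Over all genes tested 36.0% were higher and 43.3% lower. Alb, the main plasma protein made by liver, was not detected on any reference or follicle array, while the transport protein Ttr was at least 6.79-fold and Cyp2e1 at least 6.04-fold higher in the reference. Of the adipose genes, Adipoq, the fat cell hormone, was at least 11.3-fold higher and Cfd at least 63.8-fold, and Cidea differed by 5.63 (SE 0.11). Lep, Retn, Plin1 and Fabp4 were detected on no reference array.

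Markers of cells that occur in most organs were also high, and their part in the other differences was not tested. All 11 macrophage genes were higher (median 4.36), such as the complement gene C1qc (5.82, SE 0.13), and so were all 10 lymphoid genes tested (median 3.32, or 3.02 with 6 at their bound), beside 36.0% of all genes. Of these, 3 macrophage and 6 lymphoid genes were undetected at day 0 and passed the filter through the reference alone, and in the authors' values the medians were 1.56 and 1.21. Lymphoid examples were Cd52 (5.69, SE 0.29) and the T cell receptor chain Cd3d (at least 13.6-fold). The summed log2 level of the macrophage list was 13.10 to 13.19 in the reference and 8.91 to 9.07 at day 0, and that of the lymphoid list 12.74 to 12.94 and 8.52 to 8.74; Cd4 and Cd8a were detected on no reference array.

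The counts of endothelial, smooth muscle and fibroblast genes stand beside 36.0% higher and 43.3% lower over all genes tested. Of 12 endothelial genes tested, 11 were higher (median 3.01), including Vwf, a clotting factor carrier (5.24, SE 0.22), Pecam1 (3.39, SE 0.18) and Flt1 (3.23, SE 0.14), and 11 of the 13 on the array were also detected on all 5 day 0 arrays. Cldn5, the tight junction claudin, differed by 0.33 and did not pass (adjusted p = 0.0517), but passed with the 10 arrays alone (0.34), with or without the repeat number as a block, and without quantile normalization (0.52). It also passed without background correction (0.29) and with an offset of 50 (0.31). The same held without any 1 of day 0 repeats 1 and 5 and reference repeat 1. Rgs5, a pericyte gene, differed by 5.06 (SE 0.13), and 4 of 6 smooth muscle genes tested were higher. Acta2, smooth muscle actin, differed by 0.35 by its brightest probe (SE 0.13, adjusted p = 0.0191). Its other probes, all detected on all 10 arrays, differed by 1.17 to 1.33. Among fibroblast genes 6 of 11 were higher and 1 was lower, which was 3 and 0 with each group counted as 1 sample, and none was lower without quantile normalization or without any 1 of day 0 repeat 2, day 0 repeat 3 and reference repeat 4; Dpt differed by 4.15 (SE 0.25) and Dcn by 1.84 (SE 0.13), and Pdgfra by 0.03 (SE 0.15, adjusted p = 0.841).

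Blood was present in both groups at different levels. Alas2, the haem synthesis enzyme of red cell precursors, differed by 5.79 (SE 0.14), and the globins Hba-a1 (3.70, SE 0.09), Hbb-b1 (5.35, SE 0.18) and Hbb-b2 (3.97, SE 0.16), whose probes may read more than 1 globin gene, were higher in the reference. In all 5 of 6 red blood cell genes tested were higher, beside 36.0% of all genes tested, and Rhag was detected on 3 day 0 arrays and no reference array.

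The follicle's own genes set the other end of the comparison. Of 24 oocyte genes on the array, 21 were detected on no reference array, and all 22 tested were lower there (median -5.84, or -5.16 with 19 at their bound), beside 43.3% of all genes tested. Those 19 passed the filter through day 0 alone, which fixes their direction, as it does for 7 of the granulosa and 6 of the theca genes below. Gdf9, an oocyte growth factor that granulosa cells need, read 5.12, 4.82, 5.21, 4.86 and 5.12 in the reference and 14.16, 14.08, 13.93, 14.38 and 14.08 at day 0, and was at least 341.5-fold lower in the reference (difference -9.10, SE 0.13, adjusted p = 1.68e-25). Ooep and Nlrp5, of the oocyte's subcortical complex, were at least 285-fold and 110.0-fold lower, Padi6 at least 216-fold and Bmp15, a partner of Gdf9, at least 130.5-fold.

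All 13 granulosa genes tested were lower in the reference, beside 43.3% of all genes tested (median -5.18, or -4.50 with 7 at their bound). Inha, the inhibin alpha subunit, read 4.81, 5.09, 5.43, 4.64 and 4.67 against 13.90, 13.74, 13.90, 14.46 and 13.97 and was at least 311-fold lower. Hsd17b1, which makes oestradiol from oestrone, differed by -7.71 (SE 0.17), and Fst, the activin binder follistatin, was at least 45.7-fold lower. Of 8 theca and steroid genes tested 7 were lower (median -1.56, or -0.48 with 6 at their bound), and Ptch1, a hedgehog receptor, differed by 0.28 (adjusted p = 0.0916) and passed as higher with the 10 arrays alone (0.27), with or without the repeat number as a block, and without reference repeat 4. The largest deficit among them was that of Cyp17a1, the androgen-forming enzyme, at least 44.1-fold lower. In the authors' log2 values the medians were -2.73 for the oocyte and -2.23 for the granulosa list.

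Genes of energy supply were higher in the reference as groups. All 27 genes of fatty acid uptake and oxidation that were tested were higher (median 2.45), beside 36.0% of all genes. Of these, 3 were undetected at day 0 and passed the filter through the reference alone, which fixes their direction. Cpt1b, the muscle form of the gate for fatty acids into mitochondria, averaged 12.77 ± 0.04 in the reference and 5.21 ± 0.29 at day 0 (SD, n = 5; difference 7.56, SE 0.15, adjusted p = 4.01e-23). Fabp3, the heart fatty acid binding protein, read 15.02, 15.14, 15.00, 15.05 and 15.07 in the reference and 9.57, 9.54, 9.11, 8.90 and 9.11 at day 0, without overlap (difference 5.81, SE 0.25, adjusted p = 2.7e-16). Of the others, Ppargc1a, a coactivator of mitochondrial genes, by 5.07 (SE 0.12), the acyl-CoA synthetase Acsl1 by 4.97 (SE 0.22) and Lpl, which frees fatty acids from blood lipids, by 3.77 (SE 0.10).

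Over all genes tested 36.0% were higher and 43.3% lower. Of 17 genes of the tricarboxylic acid cycle and pyruvate dehydrogenase tested, 16 were higher (median 1.81), with Ogdh at 4.38 (SE 0.13), Dlat at 3.42 (SE 0.10) and Pdha1 at 2.99 (SE 0.09), and Idh3b was lower (-1.50, SE 0.09). Of 58 genes of the respiratory chain and ATP synthase tested, 54 were higher, 3 did not pass and Cox6a1 was lower (-0.50, SE 0.19, adjusted p = 0.0221), with a median of 1.48. Without quantile normalization 57 were higher, none was lower and the median was 2.41, and with each group counted as 1 sample 27 were higher and none lower. These genes were detected in both groups, 57 of 60 on all 5 reference arrays and 57 of 60 on all 5 day 0 arrays.

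Glycolysis was mixed, with 10 of 14 tested genes higher, 2 lower and 2 not passing, beside 36.0% higher and 43.3% lower over all genes tested. Among the isoforms used by muscle were Pgam2 at 8.55 (SE 0.13), the muscle phosphofructokinase Pfkm at 3.50 (SE 0.11) and Slc2a4, the insulin-regulated glucose transporter, at least 44.05-fold higher. The ubiquitous transporter Slc2a1 (-1.38) and Pgam1 (-0.73) were lower. Ldha differed by 0.13 (SE 0.16, adjusted p = 0.473), but by 1.21, and passed, without quantile normalization.

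Of 16 cardiac channel and calcium-handling genes tested, 15 were higher (median 2.69, or 2.25 with 5 at their bound), beside 36.0% of all genes; without background correction the median was 1.38, and the authors' values gave 0.74. Atp2a2, the calcium pump of heart muscle, read 15.07, 14.95, 15.05, 15.24 and 15.16 against 9.72, 10.03, 10.01, 10.05 and 10.10 at day 0 (difference 5.11, SE 0.11, adjusted p = 1.58e-22). The potassium channel subunit Kcne1 was at least 15.95-fold higher by its brightest probe, and the pacemaker channel Hcn2 differed by 4.14 (SE 0.16). Gja1, the connexin of ventricular muscle and of granulosa cells, was lower, at 13.75 in the reference against 14.88 at day 0 (difference -1.13, SE 0.09), and no member was lower without quantile normalization.

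Cell cycle, cholesterol and immediate early genes were lower in the reference. Of those tested, 4 cell cycle, 2 cholesterol and 2 immediate early genes were detected on no reference array. They passed the filter through day 0 alone, which fixes their direction. Beside 43.3% of all genes tested, all 20 cell cycle genes tested were lower (median -2.90), among them Cdk1, the kinase of mitotic entry, at least 15.8-fold, Ccnb1, its cyclin, at least 35.9-fold, Aurka at least 16.4-fold and Birc5 at -4.61 (SE 0.18). Of 13 cholesterol genes tested 9 were lower and 2 higher (median -1.20), with Sqle at -3.76 (SE 0.17) and Hsd17b7 at -3.43 (SE 0.10); the number higher was 1 with the 10 arrays alone and 0 with each group counted as 1 sample, and 1 without any 1 of day 0 repeats 1, 3, 4 and 5 and reference repeats 1, 2 and 5. Of 15 immediate early genes tested, which cells switch on within minutes of a stimulus, 12 were lower and 2 higher (median -1.59), and with each group counted as 1 sample 7 were lower and none higher, and without reference repeat 4 the number higher was 1. Fos read 7.92, 7.60, 8.00, 7.68 and 7.67 in the reference and 12.84, 13.02, 12.83, 13.28 and 12.99 at day 0 (difference -5.22, SE 0.15, adjusted p = 1.12e-19), and Fosb was at least 74.8-fold lower.

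**Figure D5:**
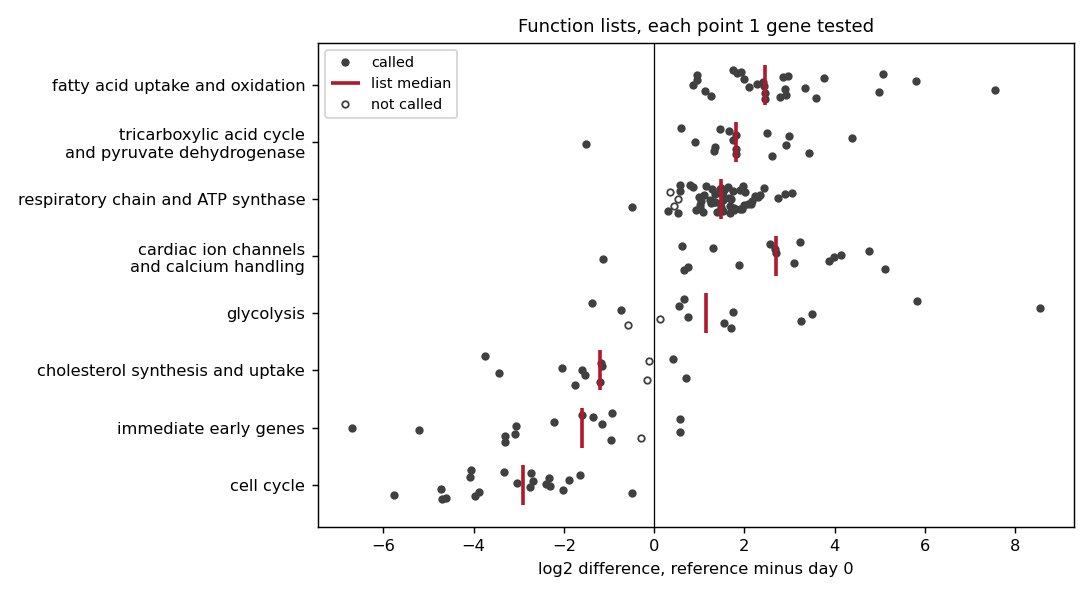
Log2 difference, reference minus day 0, of each gene tested in 8 function lists (filled, past the test; open, not past it), with the list median as a bar. Medians run from 2.69 for cardiac channels and 2.45 for fatty acid genes to -2.90 for the cell cycle.

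Sex-linked genes differed as well. Eif2s3y, on the Y chromosome, read 8.14, 7.88, 8.15, 7.94 and 8.04 on the reference arrays and was detected on none of the 20 follicle arrays, so its excess over day 0 was at least 6.52-fold (difference 3.46, SE 0.08, adjusted p = 1.49e-21). Xist, the RNA of the inactive X chromosome, averaged 6.08 ± 0.33 in the reference, where 4 of 5 arrays detected it, against 8.26 ± 0.13 at day 0 (SD, n = 5; difference -2.18, SE 0.18, adjusted p = 5.93e-11). Probes of the Y-linked Ddx3y and Uty were detected on all 20 follicle arrays too. By its brightest probe Ddx3y averaged 10.16 in the reference against 8.06 at day 0, while its other probes were detected on none of the 10 arrays. Uty differed by 0.69 (SE 0.19). Whether these follicle signals come from the Y-linked genes was not tested.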

How the data were processed

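Total RNA of 25 samples was measured on Illumina mouse bead arrays with 25697 probes. The signal table was deposited without normalization and gives, per the file headers, for each probe and array a bead intensity, its standard error as intensity, a detection p-value and a number of beads (a bead count). A second table deposited by the authors holds log2 values of 23286 probes, whose normalization is not given in the sources used here. Median bead intensity was 92.4 to 121 on reference arrays and 113 to 168 on day 0 arrays, with 38 to 40 beads a probe and a standard error of 3.71% to 4.63% of the signal. For arrays, their number limits the precision.

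The neqc function of limma 3.58.1 under R 4.3.3 took the background off the intensities, which it estimated from detection p, added 16 as offset and made the quantiles equal. A probe was kept where 3 or more of the 10 reference and day 0 arrays detected it at p under 0.05 (13986 probes), and each gene was read by its brightest probe on average, which left 10483 genes. A mean per group was fitted to all 25 arrays (lmFit, eBayes), and the Benjamini-Hochberg method adjusted p across the genes tested, with a threshold of 0.05. A gene detected on no array of a group has a bound there: a fold written "at least" sets the brighter group's mean against the lowest level detected on each array of the dim group. Symbols were updated with RefSeq (GRCm38.p6): of 18138, 14307 were current, 2902 were updated, 903 kept, and 26 were unusable. On simulated arrays with 15912 probes, 90 of 100 probes changed 2-fold and all 100 changed 4-fold were called, with 28 of 15712 unchanged. All simulated arrays were built from the day 0 means, and only these few probes changed, equally up and down. In the real comparison 79.3% of genes tested differed, so the simulated rates cannot be carried over to it.

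Same-numbered arrays deviated together from their group means (r = 0.128, 0.275, 0.108, 0.339 and 0.233). Reference repeat 1, however, correlated slightly more with day 0 repeat 2 (0.14) than with day 0 repeat 1. The reported fit did not pair the arrays, and the repeat number entered as a block only as an alternative. The numbers are those of the labels, and any pairing rests on the data. Repeats within a group differed by more than bead error (variance ratios of 2.58 to 6.87 in the reference and 1.92 to 18.1 at day 0). Bead error leaves out amplification, labelling and hybridisation, so these ratios cannot tell separate RNAs from repeats of 1 RNA. Each array was counted as 1 sample. Arrays were grouped by source label. The lists and the naming rule were chosen with earlier results of these data known: the 15 largest differences in each direction among genes that passed without overlap, up to 5 genes that passed and up to 3 that did not from each list, the 3 highest in the reference of a tissue list, and the members of the heart, brain, skeletal muscle and sex-linked lists, of which some are counted but not reported by name here; Gja1, Idh3b, Cox6a1, Slc2a1 and Pgam1 and genes named as not detected were added after their values were seen. Alternatives were other normalizations, filters and probe rules, the authors' values, the repeat block, averaged groups, a test against 2-fold and leaving out arrays.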

Additional observations from a re-analysis of the deposited data

Results flagged for a closer look

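Of 87 groups of 5 arrays tested for a value far from the others (Dixon's test at 95%), 5 held one, and chance gives about 1 in 20. All 5 values came from repeat 4. In the reference, Myl3 read 15.16 on repeat 4 and 15.24 on each of the other 4 arrays, which is the top level that quantile normalization gives every array, so that their spread is 0 by construction, and Uty read 7.38 against 6.27 to 6.47. At day 0, Myl4 read 6.67 against 7.17 to 7.24, Thy1 8.64 against 8.87 to 8.96 and Padi6 13.65 against 13.38 to 13.45. Both repeat 4 arrays were the dimmest of their groups (median signals 92.4 and 113).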

How the results depend on the processing

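The number of genes that passed (8309) was 8064 to 8196 without 1 array at a time, 8260 without quantile normalization (4226 higher and 4034 lower, against 3771 and 4538), 8255 without background correction, 8298 with an offset of 50, 7518 of 9704 in the authors' values, 9054 of 17888 without the filter and 8666 with the 10 arrays alone. It was 5093 (2273 higher, 2820 lower) with each group averaged to 1 sample, all with the sign of the main result, and 3515 (1657 and 1858) against 2-fold. Of differences of at least 1, the authors' values held 1840 in place of 4818. In the glia list 7 genes were higher without the filter, 2 higher and 1 lower with averaged groups and 2 higher and 0 lower against 2-fold; in the neuron list 3 were higher and 0 lower against 2-fold. With detection p under 0.01, 3 glia genes were detected at day 0. Heart muscle genes higher numbered 21 to 23 over all settings. With the repeat number as a block 8875 genes passed, against 8666 in the same 10 arrays without it; 11 named genes that had not passed (Actg2, Cldn5, Cox6c, Dusp1, Eno1, Ins1, Mgp, Ndufa7, Ndufc2, Ptch1 and Tubb3) did so in both fits and Col3a1 with the block alone, and 1 call was lost with the 10 arrays alone and none with the block. No named gene passed in opposite directions in any of these settings; of all 8309 calls, 7777 passed with the same sign without quantile normalization. Genes at the floor in a group have no order there.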

Other observations

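Transcripts of antigen presentation were among those high in the reference. H2-Ea, a class II histocompatibility chain, exceeded its day 0 level at least 96.2-fold, and Cd74, its chaperone, averaged 13.07 ± 0.12 against 6.91 ± 0.20 (SD, n = 5; difference 6.16, SE 0.12). S100a8, a granulocyte protein, was at least 81.3-fold higher. These 3 genes were chosen after their values were seen.

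Some muscle and blood cell transcripts were detected in fresh but not in cultured follicles. Mb was detected on 4 of 5 day 0 arrays and on none of the 15 cultured arrays, as were Alas2 and C1qc. Pln, a regulator of the calcium pump, was detected on all 5 day 0 arrays and on 8 of the 20 follicle arrays, so some cultured arrays held it too. It averaged 6.98 at day 0, 6.05 at day 2 and 4.68 at day 4, beside 13.03 in the reference. Of 65 genes detected on at least 4 day 0 arrays and on no cultured array, 22 were higher in the reference than at day 0 and 40 lower. Over all genes tested 36.0% were higher and 43.3% lower. The 65 were chosen by detection at day 0, which favours genes lower in the reference, so no direction is read from these counts. Of the 43 heart and striated muscle genes on the array, 23 were detected on no follicle array and 8 on all 20. The cause was not tested.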
